A study of Mus musculus with 30 samples.

Results

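Esm1, Apln, Aplnr, Cxcr4 and Unc5b are 5 genes used as marks of endothelial tip cells, the cells that lead a growing vessel sprout, and of the guidance signals those cells answer. They were taken by name from the gene symbols that the array platform gives its probe sets, and are 5 of the 12393 genes measured. In all, 6 probe sets carried these symbols. Aplnr had 2, of which the brighter was used and the other kept as a check, and the other genes had 1 each. The values come from 30 mouse retinas, each of another pup and each on an array of its own, with 3 in each of 10 groups. Disease was modelled as oxygen-induced retinopathy (OIR): pups were housed in 75% oxygen for 5 days from postnatal day 7 (P7) and then returned to room air.

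The 10 groups were as follows. Normoxia pups were kept in room air and untreated, and untreated OIR pups had oxygen only. The other 8 groups had oxygen and an injection into the vitreous, either at P5, before oxygen, or at P12, on return to room air. The injection was saline, 100000 endothelial colony-forming cells (ECFC), 10000 CD34+ cells (CD34 below), or both cell types together (110000 cells, the combination). The labels name no strain, allele or source of the cells. Each label gave P17 as the stage, but the protocols give P12 or P17 as the day of collection, and the design text reads as collection at P12 after injection at P5. In any comparison of a P5 group with another group, injection day and collection day therefore cannot be told apart. Nothing states whether the pups of a group came from separate litters, so p-values may not cover the spread between litters. Those of the main fit measure the spread between retinas within groups, pooled over all 10 groups.

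In a growing retinal vessel, a few endothelial cells at the front become tip cells, extend filopodia and steer, while stalk cells behind them divide. Vascular endothelial growth factor drives tip cells to make Esm1, a secreted proteoglycan, and Apln, the peptide apelin, whose receptor Aplnr sits on endothelial cells of the sprout and of veins. Cxcr4 is the receptor of the chemokine Cxcl12 and is found on tip cells and on blood-derived cells, and Unc5b is a netrin receptor of arterial and tip cells that can hold back sprouting. In OIR the hypoxic retina forms tufts of new vessels, where Esm1 and Apln are well-known marks.

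Values are the deposited log2 values. Differences are log2 differences ± SE from limma, with Benjamini-Hochberg adjusted p over all 12393 genes, and a gene is said to have risen or fallen at an adjusted p under 0.05. Array medians ran from 8.16 to 8.49, replicate arrays had pairwise r of 0.964 to 0.997, and 3 arrays per group limit the precision. Rod photoreceptor markers averaged 13.44 to 13.58 by group, as the retina label has it. Hybridisation controls are spiked in and hold no retinal RNA. They averaged 13.3 to 13.5 in the P12 groups and 12.2 to 12.7 in all other groups, with no overlap. In any comparison of a P12 group with a group outside P12, injection and this array difference therefore cannot be told apart. Lens markers averaged 12.50 in P5 saline, 11.73 in P5 CD34, 9.83 in P5 combination and 9.25 in P5 ECFC, against 6.13 to 7.35 elsewhere. Microglia and macrophage markers averaged 7.26 in normoxia and 7.79 to 8.72 in the OIR groups. Xist, which marks female tissue, read 12.28 to 12.48 in the P5 combination and 5.03 to 5.51 in the P12 combination. Every other group held arrays with high and with low Xist. In comparisons of a combination group, treatment and sex therefore cannot be fully told apart, and the part of sex was not tested. In bulk retina, fewer cells of a type and less RNA per cell cannot be told apart.

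Esm1 and Apln were the pair whose group means moved most closely together (below), so the 250 bases before their annotated starts are shown, from RefSeq on mouse build GRCm38.p6. Esm1 lies on the plus strand (chr13:113209409-113209658) and Apln on the minus strand (chrX:48034854-48035103). Capitals mark GCGTG, a form of the core of the hypoxia response element, found on either strand. The sequences read 5′ to 3′ toward the start.

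Esm1: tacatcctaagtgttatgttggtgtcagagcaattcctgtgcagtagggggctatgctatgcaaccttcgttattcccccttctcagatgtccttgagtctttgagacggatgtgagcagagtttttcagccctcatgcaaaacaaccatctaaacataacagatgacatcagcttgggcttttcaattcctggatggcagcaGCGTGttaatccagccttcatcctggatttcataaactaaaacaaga

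Apln: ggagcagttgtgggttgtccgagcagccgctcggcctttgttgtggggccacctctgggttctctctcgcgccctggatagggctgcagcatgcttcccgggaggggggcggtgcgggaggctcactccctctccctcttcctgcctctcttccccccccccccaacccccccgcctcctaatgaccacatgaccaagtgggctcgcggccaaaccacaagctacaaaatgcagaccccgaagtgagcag

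The Esm1 stretch held 1 match, 47 bases before the start, and its GC content was 44.0%. The Apln stretch held none and was richer in GC, at 65.2%. The same search found 1 match for Cxcr4, 39 bases before the start (chr1:128592300-128592549, minus strand), and 1 for Unc5b, 57 bases before it (chr10:60831582-60831831, minus strand). GCGTG occurred in 28.2% of 32851 such promoter stretches. Aplnr had no entry in the promoter reference and was not searched. None of the 4 stretches held the other core form ACGTG (16.6% of all), the ETS core CGGAAG (13.6%) or the AP-1 site TGANTCA (6.7%), on either strand. A match is a run of letters and not a measured binding site.

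Untreated OIR against normoxia asked how far these genes differ between the retinopathy and the healthy retina. All 5 rose. Esm1 read 3.34, 3.80 and 4.18 in normoxia and 7.79, 7.97 and 8.78 in untreated OIR, a difference of 4.41 ± 0.48 or 21.2-fold (adjusted p = 3.6e-06). Apln read 6.53, 6.60 and 6.57 in normoxia and 9.64, 9.68 and 10.13 in OIR, a difference of 3.25 ± 0.35 or 9.51-fold (adjusted p = 3.6e-06). For both genes every OIR array lay far above every normoxia array, and the normoxia arrays of Apln differed from each other by less than 0.1.

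The receptors rose less. Cxcr4 went from 8.17, 8.34 and 8.57 in normoxia to 9.94, 10.13 and 9.73, a difference of 1.57 ± 0.20 (adjusted p = 2e-05). Unc5b went from 9.12, 9.27 and 8.28 to 10.02, 10.25 and 10.41, a difference of 1.34 ± 0.25 (adjusted p = 0.0019). Aplnr went from 9.79, 9.32 and 10.01 to 10.96, 10.93 and 10.34, a difference of 1.04 ± 0.26 (adjusted p = 0.021). The groups did not overlap for any of the 5 genes, and the share of all genes without overlap was not counted. All 5 passed, whereas of all genes 4.56% passed in this comparison, 3.59% upward and 0.968% downward. The 5 genes were chosen with earlier results of these data known, so that count is a description. The share of all genes was 1.95% without OIR replicate 3 and 2.61% without normoxia replicate 3. The rise of Aplnr was the least firm: its adjusted p was 0.078 without OIR replicate 1, 0.089 without OIR replicate 2, 0.09 without normoxia replicate 2 and 0.051 in a fit of these 6 arrays alone. The second Aplnr probe set rose by 1.11 ± 0.26 (adjusted p = 0.011 over all probe sets), from 7.77 ± 0.03 to 8.89 ± 0.59 (SD, n = 3).

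Esm1 was dim in normoxia. Y-linked genes on the 14 arrays with high Xist, which should carry no Y-linked RNA, read 3.61 to 5.41, and all 3 normoxia arrays of Esm1 lay within or below that range. The difference of 4.41 is therefore a lower limit. Olfactory receptor genes, 31 of them, gave a second reference level: their 95th percentile ran from 5.74 to 7.57 across arrays. Esm1 exceeded it on all 3 arrays of untreated OIR and of P12 saline, on 1 array each of P12 CD34 and P5 CD34, and on no other array.

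**Figure D1:**
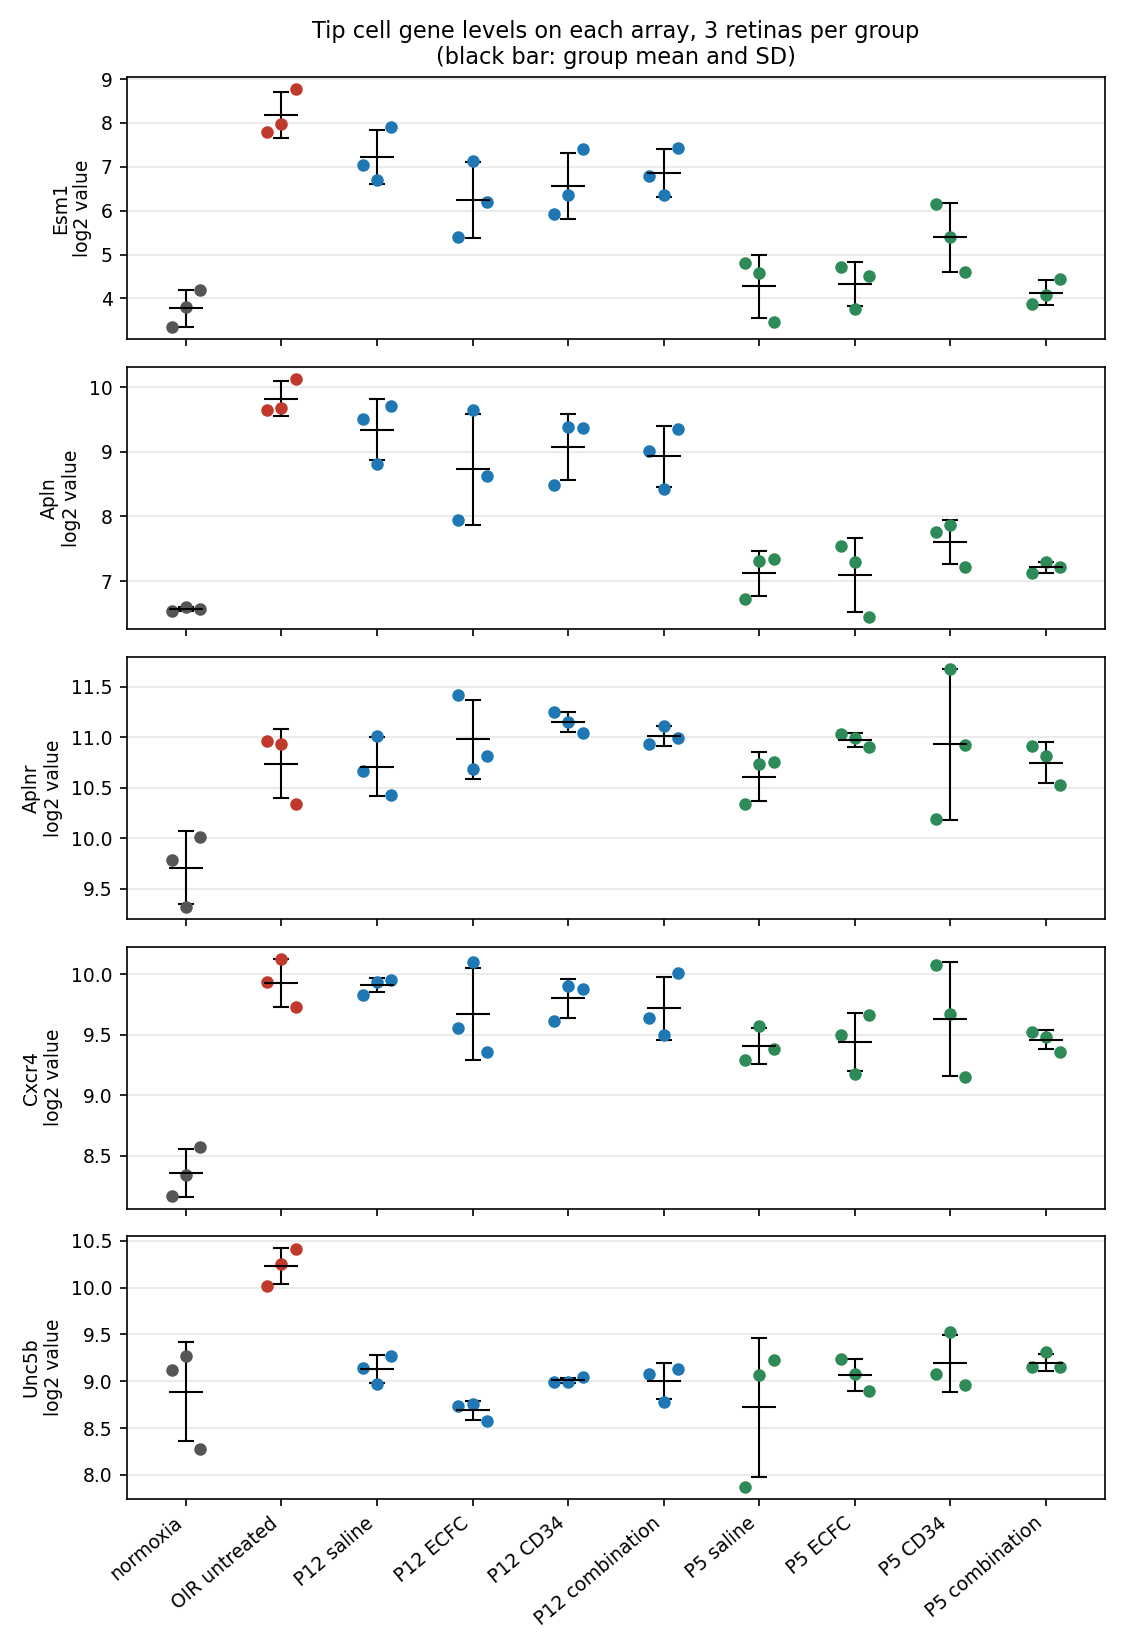
Deposited log2 value (vertical axis, a separate scale per gene) of Esm1, Apln, Aplnr, Cxcr4 and Unc5b on each of 30 arrays, by group along the horizontal axis; points are retinas, and black bars give the group mean and SD of 3. Esm1 and Apln step down from untreated OIR through the P12 groups to the P5 groups, Aplnr and Cxcr4 are lowest in normoxia, and Unc5b is highest in untreated OIR.

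Endothelial genes as a whole were also higher in OIR, so each gene was set against the mean of 19 measured pan-endothelial genes on the same array. In that list 11 of 19 rose and 1 fell, with a median difference of 0.76 against -0.02 over all genes. Slco1a4 averaged 8.64 in normoxia and 7.29 in OIR, and Abcb1a (8.43 and 8.31) and Ptprb (9.24 and 9.15) also averaged lower in OIR. Pecam1, an adhesion gene of all endothelium, rose by 1.46, the cadherin Cdh5 by 1.48, Emcn, a mucin of veins and capillaries, by 1.52 and the clotting factor Vwf by 1.95. Pericyte markers, of the cells that wrap small vessels, rose with them, 8 of 11 with a median of 0.81, and their part in the results was not tested. Relative to the pan-endothelial list, Esm1 was 3.70 higher in OIR, Apln 2.54, Cxcr4 0.86 and Unc5b 0.63, with no overlap between groups (exact permutation p = 0.1 two-sided, the smallest that 3 against 3 allows). Aplnr was 0.32 higher on this scale and the groups overlapped (exact p = 0.3). With the list mean as a covariate in limma, Esm1 (4.49), Apln (2.69) and Cxcr4 (1.43) still passed, while Aplnr (0.24, adjusted p = 0.72) and Unc5b (0.74, adjusted p = 0.16) did not. The slope of such a covariate rests on the spread within all 10 groups. For this list the spread was widest in P5 CD34 (SD 0.49, against 0.01 to 0.22 in the other groups). How far the covariate results lean on that group was not tested.

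Cxcr4 is also a gene of blood-derived cells. Of 13 measured microglia and macrophage markers 3 rose in OIR, with a median difference of 0.78. Of the T, B and NK cell markers 0 of 11 passed (median -0.29), of the granulocyte markers 0 of 8 (median -0.12) and of the red cell markers 0 of 3. With the mean of the microglia and macrophage list as a covariate, chosen after seeing the data, Cxcr4 stood 1.42 ± 0.22 higher (adjusted p = 0.00036) and Aplnr 1.41 ± 0.26 (adjusted p = 0.0024).

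Tip cell genes other than these 5 moved with them in OIR. Of 23 in the list, 17 rose and 0 fell, and all 23 differences were positive, with a median of 1.31. The list was chosen with earlier results of these data known, so these counts are descriptions. The vasodilator peptide Adm rose by 3.16 ± 0.39, the basement membrane collagen Col4a1 by 1.98 ± 0.24, the adhesion gene Mcam by 1.95 ± 0.19 and the laminin chain Lama4 by 1.77 ± 0.20. Kdr, the main receptor of vascular endothelial growth factor, and Nrp2, a co-receptor, were among the 6 that did not pass.

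The signalling partners of the receptors did not follow that pattern. Of 13 measured genes of the apelin pathway list 1 rose, the G protein subunit Gnai2 by 0.57 ± 0.11 (adjusted p = 0.0017), and the list median was 0.08. Arrb1, an arrestin that binds activated receptors, stood at 0.52 ± 0.17 without passing (adjusted p = 0.075). In the Cxcl12 and Cxcr4 list 0 of 9 passed (median 0.30), and in the netrin and UNC5 list 0 of 12 (median -0.06); over all genes limma called 565, and 2455 had an unadjusted p under 0.05. Cxcl12, the ligand of Cxcr4, stood at -0.61 ± 0.24 in OIR (adjusted p = 0.16), against the 1.57 of its receptor. The netrin genes Ntn1 (0.12 ± 0.24) and Ntn4 (0.04 ± 0.24) lay within their errors of 0.

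**Figure D2:**
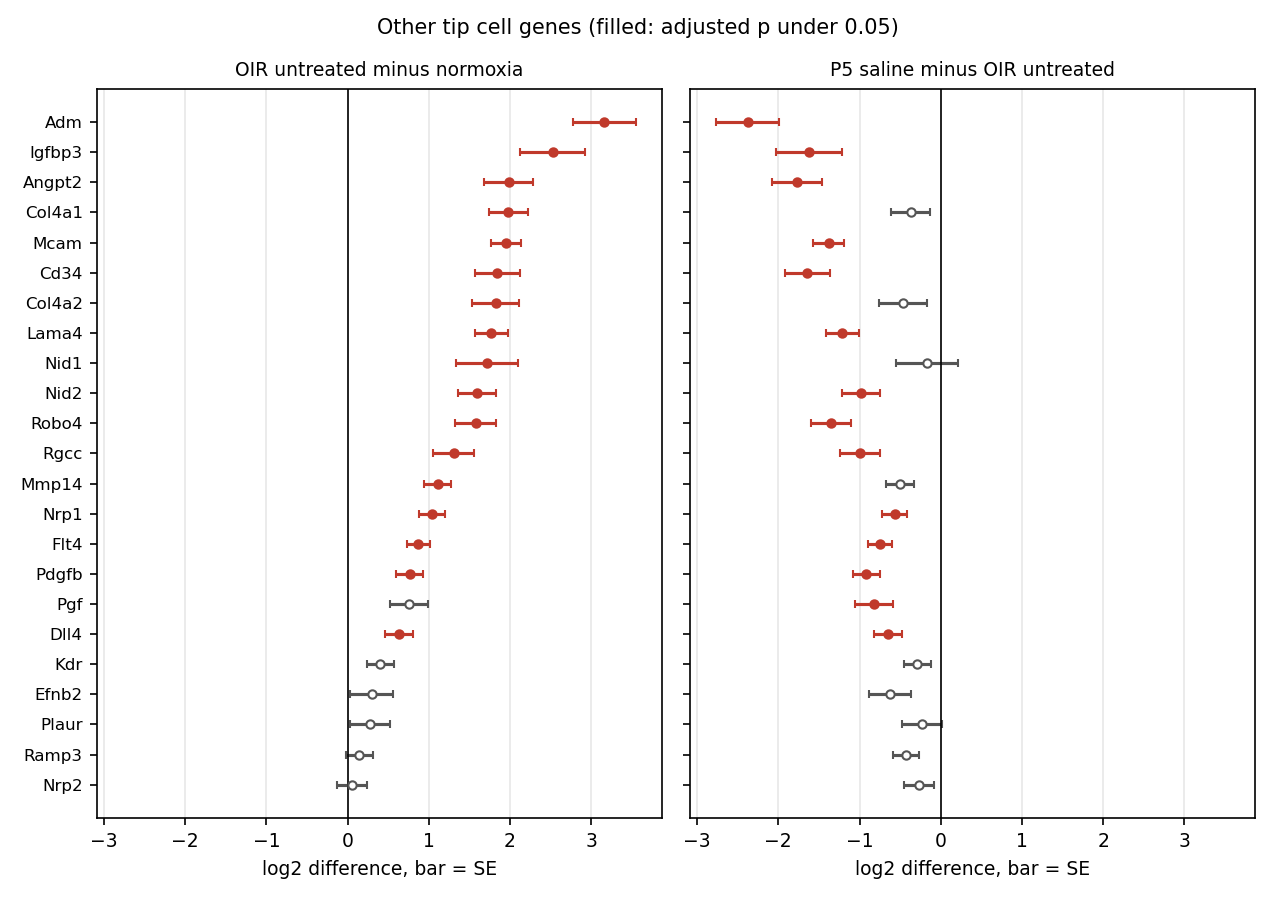
Log2 difference (horizontal axis, bars are SE) of 23 other tip cell genes in untreated OIR minus normoxia (left) and P5 saline minus untreated OIR (right), with filled points for adjusted p under 0.05. On the left 17 of 23 pass upward, and on the right 14 pass downward, with Col4a1, Col4a2, Nid1 and Mmp14 among those that do not.

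P12 saline was set against untreated OIR to ask how these genes differ after an injection at return to room air. The hybridisation controls differed between these groups too, so injection and array differences cannot be told apart. Unc5b fell by 1.10 ± 0.25 (adjusted p = 0.0031): its arrays read 9.14, 8.97 and 9.27 after saline, all below the lowest untreated OIR array at 10.02. That is 1 of 5 genes, in a comparison in which 21.3% of all genes passed and 15.4% fell. The other 4 genes did not pass. Esm1 read 7.05, 6.70 and 7.91 (-0.96 ± 0.48, adjusted p = 0.16), overlapping with untreated OIR, and Apln read 9.50, 8.81 and 9.71 (-0.48 ± 0.35, adjusted p = 0.35). Cxcr4 (9.83, 9.94 and 9.95) and Aplnr (10.67, 11.01 and 10.43) differed from untreated OIR by -0.03 ± 0.20 and -0.04 ± 0.26.

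None of the 24 arrays of the 8 injected groups reached the lowest untreated OIR array in Unc5b: they ran from 7.87 in P5 saline to 9.53 in P5 CD34, against 8.28 to 9.27 in normoxia. The groups given cells were not tested against untreated OIR. Relative to the pan-endothelial list, Unc5b differed by -1.01 between P12 saline and untreated OIR, again without overlap (exact p = 0.1). With the mean of the hybridisation controls as covariate, however, the difference was -0.54 ± 0.31 and did not pass (adjusted p = 0.27). Of the other tip cell genes, 4 of 23 fell after P12 saline and 0 rose (median -0.21). In the apelin pathway list, of 13 measured genes 2 rose and 5 fell. Of all genes 5.95% rose and 15.4% fell in this comparison, and neither list was tested against those shares.

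Against normoxia, P12 saline was higher in 4 of the 5 genes, where 27.5% of all genes passed and 9.93% passed upward. Esm1 differed by 3.45 ± 0.48 (adjusted p = 1.4e-05), Apln by 2.77 ± 0.35 (5.3e-06), Cxcr4 by 1.55 ± 0.20 (5.6e-06) and Aplnr by 0.999 ± 0.26 (0.0058), while Unc5b differed by 0.24 ± 0.25 (0.55). The Aplnr call was lost with the hybridisation control covariate (0.73, adjusted p = 0.086) and with the pan-endothelial covariate (0.30, adjusted p = 0.46). In the P12 combination the same 4 genes passed against normoxia, by 3.09, 2.36, 1.36 and 1.30 in the order Esm1, Apln, Cxcr4 and Aplnr, where 33.1% of all genes passed and 11.5% passed upward. Both comparisons share the normoxia arrays. In the P12 combination and in normoxia, every Esm1 array lay at or below the olfactory receptor level of its array, which averaged 7.15 and 6.41.

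Saline at P5 against untreated OIR separated the genes into those that were low and those that were not. Esm1 read 4.80, 4.58 and 3.46, so it fell by 3.90 ± 0.48 (adjusted p = 9.9e-05), to within or below the Y-linked range, which makes this fall a lower limit too. Apln read 6.72, 7.31 and 7.34 and fell by 2.70 ± 0.35 (adjusted p = 0.00016). Unc5b read 7.87, 9.07 and 9.23 and fell by 1.51 ± 0.25 (adjusted p = 0.00081). These 3 of 5 compare with 8.69% of all genes that passed and 4.88% that fell.

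Cxcr4 and Aplnr stayed closer to untreated OIR. Cxcr4 read 9.29, 9.57 and 9.38, below all 3 untreated OIR arrays, at -0.52 ± 0.20 (adjusted p = 0.1). It passed with array weights (-0.54, adjusted p = 0.018) and with the hybridisation control covariate (-0.60, adjusted p = 0.034), but with the lens marker covariate it differed by -0.15 (adjusted p = 0.84). Aplnr read 10.34, 10.74 and 10.76 and differed by -0.13 ± 0.26 (95% interval -0.67 to 0.41, adjusted p = 0.81). Its second probe set differed by -0.41 ± 0.26 (adjusted p = 0.35 over all probe sets). The Unc5b call was lost in a fit of these 6 arrays alone (adjusted p = 0.095) and with the lens marker mean as a covariate (-1.43, adjusted p = 0.06).

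Lens and pigment epithelium genes were high on the same arrays: 13 of 13 measured lens markers rose in this comparison, by a median of 6.65, and 5 of 9 pigment epithelium markers rose. With the lens covariate Esm1 differed by -3.46 (adjusted p = 0.016) and Apln by -2.53 (adjusted p = 0.018). Pan-endothelial genes were lower as well, 9 of 19 passing with a median of -0.60, and 6 of 11 pericyte markers fell (median -0.81). Relative to the pan-endothelial list the difference was -3.29 for Esm1, -2.09 for Apln, -0.90 for Unc5b and 0.48 for Aplnr, each without overlap (exact p = 0.1), while Cxcr4 differed by 0.09 (exact p = 0.5).

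**Figure D3:**
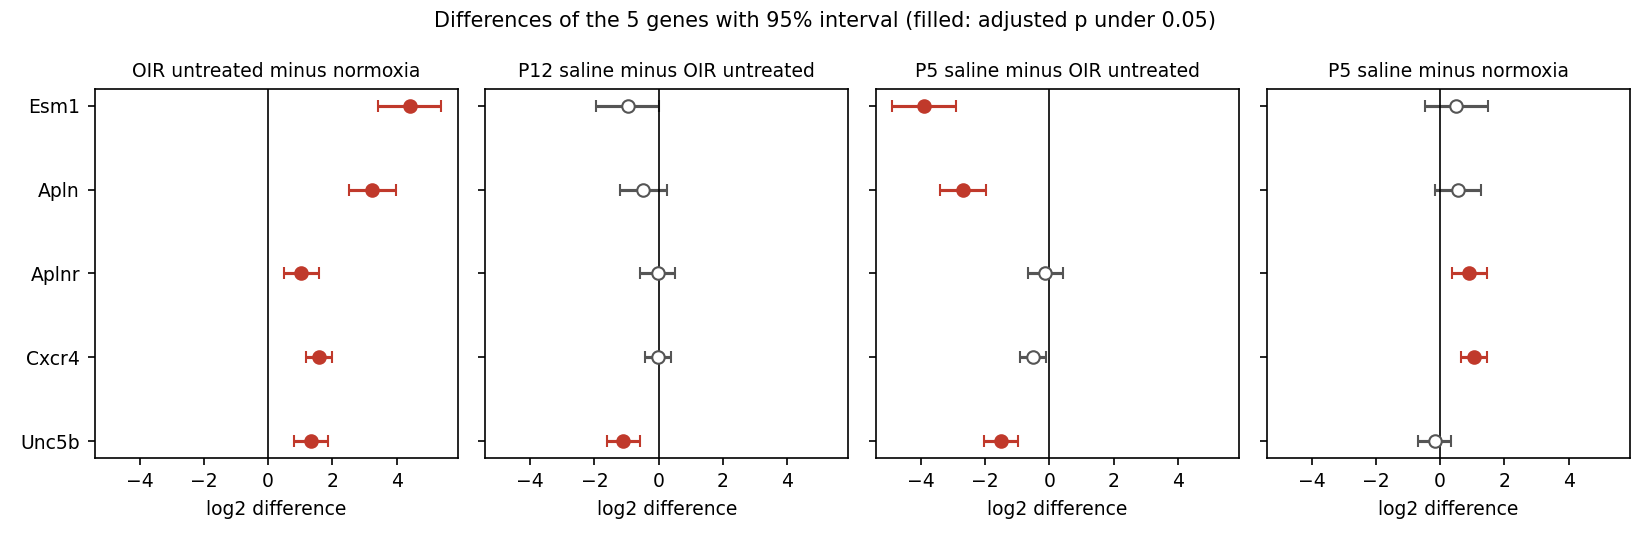
Log2 difference with its 95% interval (horizontal axis) of the 5 genes in 4 comparisons, with filled points for adjusted p under 0.05. All 5 genes pass in untreated OIR minus normoxia, Unc5b alone passes in P12 saline minus untreated OIR, Esm1, Apln and Unc5b pass in P5 saline minus untreated OIR, and Aplnr and Cxcr4 pass in P5 saline minus normoxia.

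Against normoxia, P5 saline gave the complementary set. Cxcr4 was higher by 1.05 ± 0.20 (adjusted p = 0.0022) and Aplnr by 0.91 ± 0.26 (adjusted p = 0.033), where 8.1% of all genes passed and 3.91% passed upward. Apln stood 0.55 ± 0.35 higher with every array above normoxia but did not pass (adjusted p = 0.37), and Esm1 (0.51 ± 0.48) and Unc5b (-0.17 ± 0.25) overlapped with normoxia. In the P5 combination the same 2 genes passed, Cxcr4 by 1.10 ± 0.20 (adjusted p = 0.0063) and Aplnr by 1.05 ± 0.26 (adjusted p = 0.038), where 1.82% of all genes passed and 0.815% passed upward. Neither P5 call of Aplnr was firm. In P5 saline it was lost without P5 saline replicate 2 (adjusted p = 0.11) or 3 (0.089) and without normoxia replicate 1 (0.055) or 2 (0.14), and in the P5 combination without any 1 of the 6 arrays (0.056 to 0.14). The second probe set gave 0.71 (adjusted p = 0.084) and 0.85 (0.074), and the lens covariate 0.38 (0.47) and 0.79 (0.081). When only the 6 arrays of P5 saline and normoxia were fitted, the Cxcr4 call was lost too (adjusted p = 0.1).

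Relative to the pan-endothelial list, Cxcr4 averaged 1.07 to 1.50 in the 9 OIR groups and 0.23 ± 0.20 in normoxia (SD, n = 3). Aplnr on that scale was 0.80 higher in P5 saline than in normoxia, without overlap. The other tip cell genes that stayed higher in P5 saline than in normoxia were 4 of 23, all of the matrix or its turnover: Col4a1 by 1.61, Nid1 by 1.54, Col4a2 by 1.36 and the membrane protease Mmp14 by 0.61. Lens markers were high on the same P5 saline arrays, and their part in these 4 rises was not tested. Cxcl12, in contrast to its receptor, was lower than in normoxia, at -1.06 ± 0.24 in P5 saline (adjusted p = 0.0091) and -1.26 ± 0.24 in P12 saline (adjusted p = 0.00045).

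**Figure D4:**
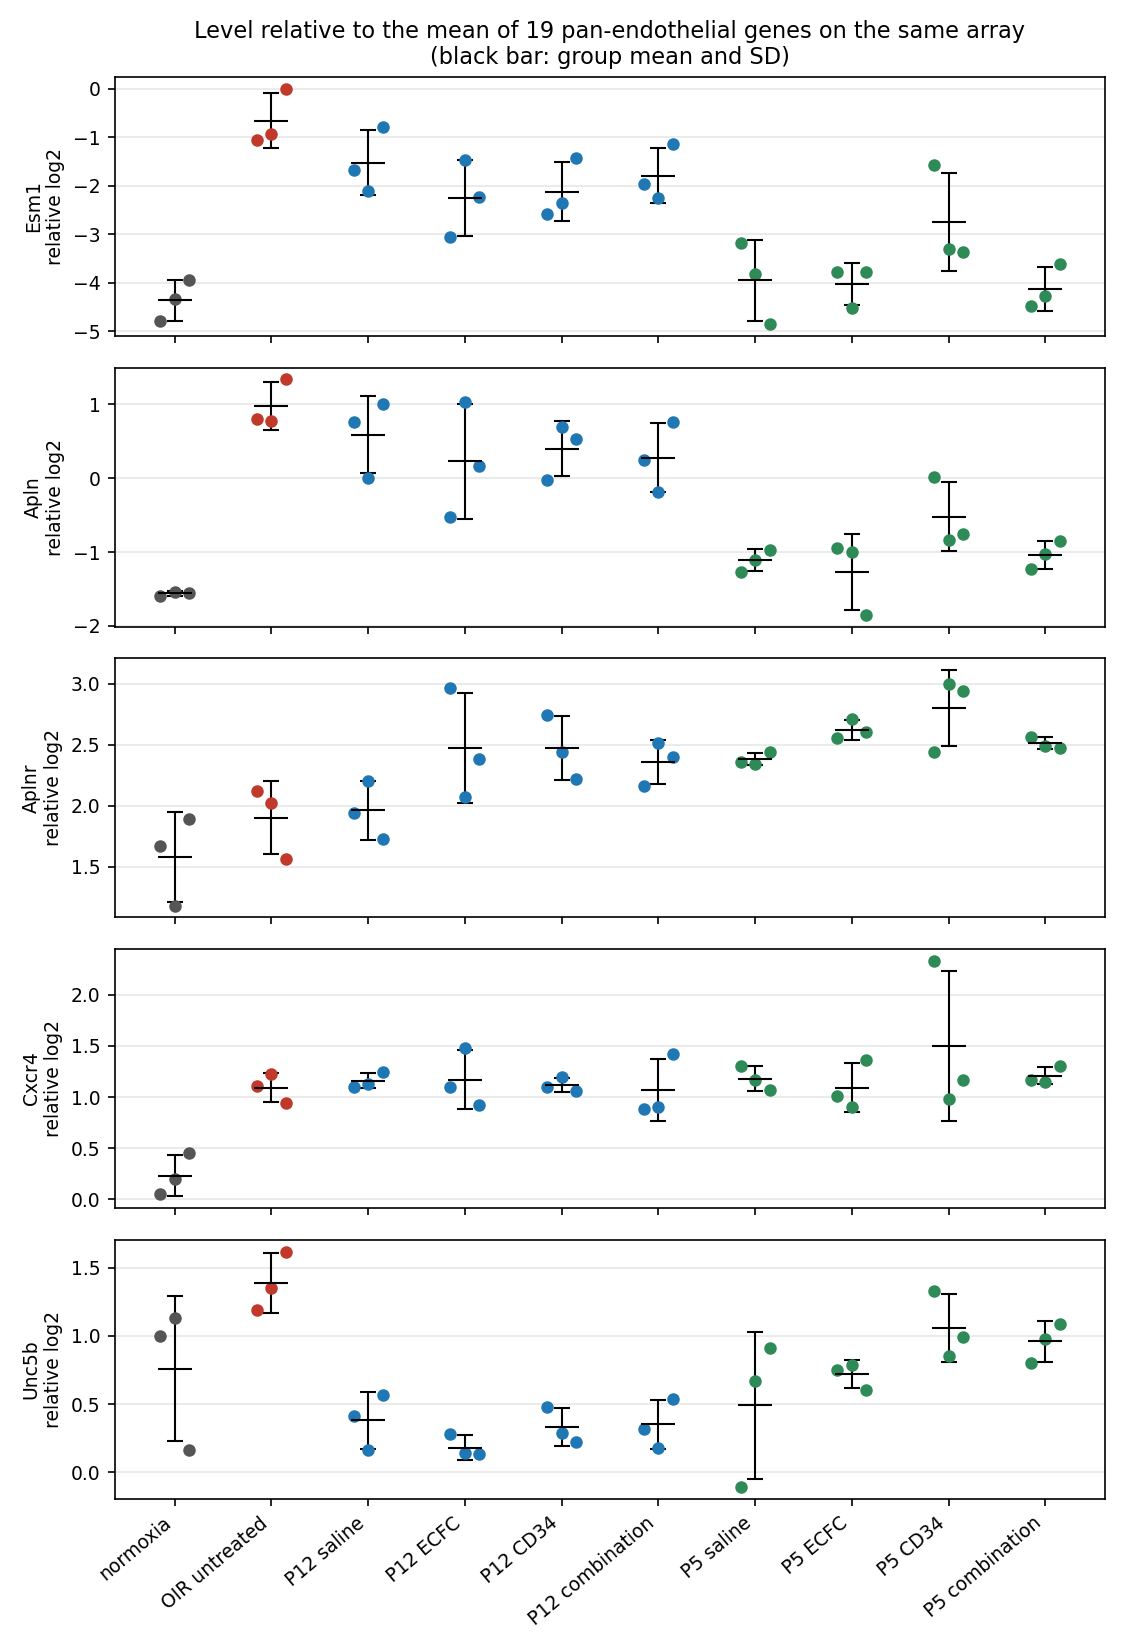
Log2 value of each gene minus the mean of 19 pan-endothelial genes on the same array (vertical axis, a separate scale per gene), by group; points are retinas and black bars give the group mean and SD of 3. Cxcr4 lies between 1.07 and 1.50 on average in the 9 OIR groups and at 0.23 in normoxia, and Esm1 in P5 saline averages -3.95 against -0.66 in untreated OIR.

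Between the saline groups, P5 saline minus P12 saline was -2.94 ± 0.48 for Esm1 (adjusted p = 7.7e-05) and -2.22 ± 0.35 for Apln (adjusted p = 5.6e-05), where 27.7% of all genes passed and 8.57% passed downward. Every P5 saline array lay below every P12 saline array in both genes. Cxcr4 was also lower without overlap, at -0.49 ± 0.20 (adjusted p = 0.065), and passed under 6 alternatives, among them quantile normalization (-0.63, adjusted p = 0.021). With the lens covariate it differed by -0.11 (adjusted p = 0.81). Unc5b stood at -0.41 ± 0.25 and Aplnr at -0.09 ± 0.26. The second Aplnr probe set stood lower, at -0.68 ± 0.26 (adjusted p = 0.051 over all probe sets). With the hybridisation control covariate Unc5b differed by -1.14 and passed (adjusted p = 0.023).

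The order of the 10 group means gave each gene a profile. Esm1 was highest in untreated OIR (8.18 ± 0.53), then P12 saline (7.22 ± 0.62), P12 combination (6.86 ± 0.55), P12 CD34 (6.56 ± 0.76) and P12 ECFC (6.25 ± 0.87). After these came P5 CD34 (5.39 ± 0.78), P5 ECFC (4.33 ± 0.50), P5 saline (4.28 ± 0.72), P5 combination (4.13 ± 0.29) and normoxia (3.77 ± 0.42). Apln placed the P12 groups at 8.73 to 9.34 and the P5 groups at 7.09 to 7.61, between untreated OIR (9.82 ± 0.27) and normoxia (6.57 ± 0.03). Neighbours in the order of Esm1 overlapped throughout, and in that of Apln all but P12 ECFC and P5 CD34 did.

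Aplnr and Cxcr4 were lowest in normoxia. Aplnr averaged 9.71 ± 0.36 in normoxia and 10.61 (P5 saline) to 11.15 (P12 CD34) in the OIR groups, with untreated OIR at 10.74 in the lower part of that range. Its second probe set gave another order: 9.14 to 9.32 in the P12 groups, 8.89 in untreated OIR and 8.48 to 8.74 in the P5 groups. Normoxia was lowest there too, at 7.77. Cxcr4 averaged 8.36 ± 0.20 in normoxia and 9.41 (P5 saline) to 9.93 (untreated OIR) elsewhere. Its means in untreated OIR and the P12 groups (9.67 to 9.93) all lay above those in the P5 groups (9.41 to 9.63), and its group means correlated with those of Apln at r = 0.79 (10 groups, a description). For both genes the only neighbours in the order that did not overlap were P5 saline and normoxia. For Unc5b they were untreated OIR (10.23 ± 0.19) and the next group, P5 combination (9.20 ± 0.09), with the remaining means between 8.69 and 9.19.

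**Figure D5:**
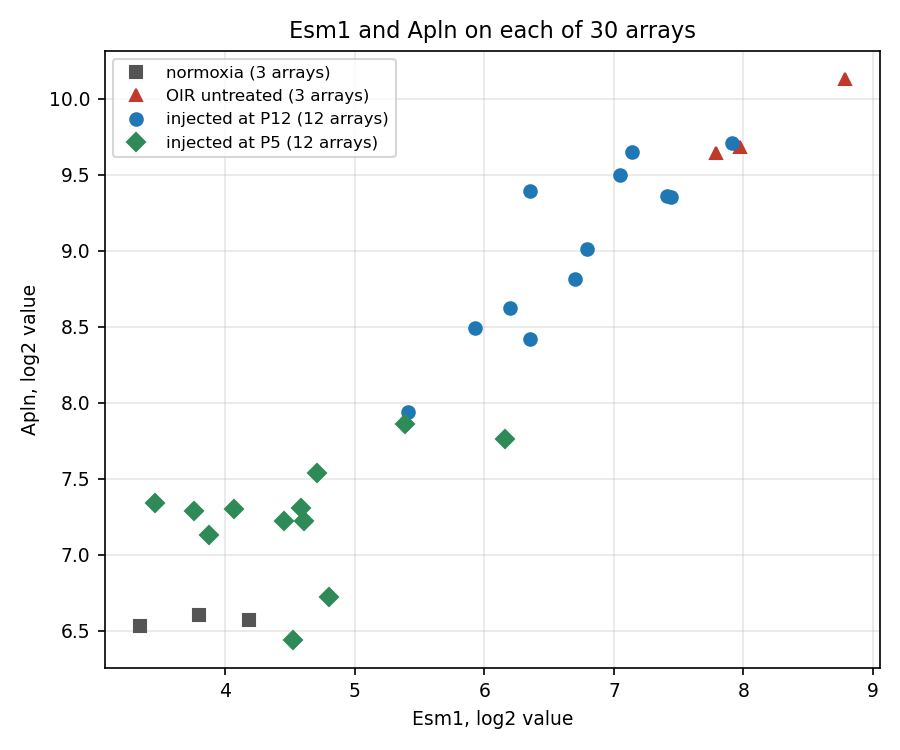
Log2 value of Apln (vertical axis) against Esm1 (horizontal axis) on each of 30 arrays; symbols separate normoxia, untreated OIR, the 12 arrays injected at P12 and the 12 injected at P5. The untreated OIR arrays lie at the upper right, and no P5 array exceeds 7.86 in Apln, below the lowest P12 array at 7.94.

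Esm1 and Apln group means correlated with r = 0.99 over 10 groups. The array deviations from group means of the same pair correlated with r = 0.59 over 30 arrays, so retinas with more Esm1 than their group tended to have more Apln. Aplnr and Cxcr4 group means correlated with r = 0.85 and Aplnr and Unc5b with r = 0.07. Within groups Esm1 and Aplnr ran opposite ways, at r = -0.55. These values share arrays and normalization and are descriptions without a test.

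Among 1900 genes whose group means span at least 1 log2 unit, those closest to Esm1 by r over 10 group means were Cdh5 (0.981), Angpt2 (0.977), Ccl2 (0.976), Lamc1 (0.973) and Procr (0.973). Closest to Apln were Ccl2 (0.988), Mgp (0.984), Adm (0.983), Cdh5 (0.98) and Angpt2 (0.98). Angpt2, the vessel-destabilising ligand of Tek, was second by r over 30 arrays for both Esm1 (0.937) and Apln (0.955). The chemokine Ccl2 ranked 61 for Esm1 and 105 for Apln when r was taken over single arrays.

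The receptors had other neighbours. Closest to Cxcr4 were Elk3 (0.972), Nrp1 (0.943), the leukocyte gene Lcp1 (0.94), Clic1 (0.932) and the collagen chaperone Serpinh1 (0.929). Closest to Aplnr were Tgfbi (0.893), the basement membrane gene Hspg2 (0.862), Apobec3 (0.842), Hpgds (0.84) and B2m (0.831). Closest to Unc5b were Cavin3 (0.948), the lactate exporter Slc16a3 (0.934), the pericyte gene Cspg4 (0.932), Jak3 (0.926) and Dusp16 (0.905). Cspg4 was also first for Unc5b over 30 arrays (0.905).

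Cells injected at P12 against saline at P12 asked whether ECFC, CD34+ cells or both changed these genes once OIR was under way. None of the 5 genes passed with any of the 3, in comparisons in which 0.0161% (ECFC), 0% (CD34) and 0% (combination) of all genes passed. For ECFC that share was 2.57% (319 genes) without ECFC replicate 1. At an unadjusted p under 0.05, 1996, 643 and 1226 genes lay in these comparisons, none of the 5 among them. Esm1 read 5.41, 7.14 and 6.20 after ECFC, 5.93, 6.35 and 7.41 after CD34 and 6.79, 6.35 and 7.44 after the combination. The differences from saline were -0.97 ± 0.48 (95% interval -1.95 to 0.02), -0.66 ± 0.48 (-1.64 to 0.33) and -0.36 ± 0.48 (-1.34 to 0.62). Apln differed by -0.61 ± 0.35 (-1.33 to 0.11), -0.26 ± 0.35 (-0.98 to 0.46) and -0.41 ± 0.35 (-1.13 to 0.31).

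All 6 intervals included 0. The size of the ECFC difference in Esm1 moved with single arrays. Without ECFC replicate 1, whose Esm1 value was the lowest of the 12 P12 arrays, the Esm1 difference was -0.55 (adjusted p = 0.54), and without ECFC replicate 2 it was -1.41 (adjusted p = 0.6). With array weights, which count deviating arrays less, 4 of the 5 genes passed after ECFC: Esm1 (-1.15, adjusted p = 0.027), Apln (-0.76, 0.022), Cxcr4 (-0.45, 0.015) and Unc5b (-0.54, 0.0072). In that fit 3143 of all genes passed, or 25.4%.

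The receptors lay near saline at P12. Unc5b read 8.74, 8.76 and 8.57 after ECFC, below every saline array, at -0.44 ± 0.25 (adjusted p = 0.39). Aplnr read 11.25, 11.15 and 11.04 after CD34, above every saline array, at 0.44 ± 0.26 (adjusted p = 0.93). Aplnr differences were positive with all 3 treatments at P12 (0.27, 0.44 and 0.31) and Cxcr4 differences negative (-0.23, -0.11 and -0.19). None passed, and the differences of each gene share the saline arrays. The second Aplnr probe set gave 0.02, -0.02 and 0.16, with CD34 at 9.14 against 9.16 in saline.

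Cells injected at P5 against saline at P5 asked the same of treatment before oxygen. None of the 5 genes passed here either. With ECFC and with the combination 0% of all genes passed, and 779 and 978 lay at an unadjusted p under 0.05, none of the 5 among them. Esm1 read 4.71, 3.76 and 4.52 after ECFC and 3.87, 4.07 and 4.45 after the combination, within the Y-linked range, so a further fall could not have been detected. Apln read 7.54, 7.29 and 6.44 after ECFC and 7.13, 7.30 and 7.22 after the combination, at -0.03 ± 0.35 and 0.09 ± 0.35 from saline.

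CD34+ cells alone at P5 stood apart over all genes, 8.46% of which passed, but not in these 5. Esm1 read 6.16, 5.39 and 4.61, at 1.10 ± 0.48 from saline (95% interval 0.12 to 2.09, adjusted p = 0.16), with overlap. It was the 1 gene of the 5 at an unadjusted p under 0.05, as were 2796 of all genes. Apln read 7.76, 7.86 and 7.22, at 0.49 ± 0.35 (adjusted p = 0.45). The highest Esm1 value, 6.16, came from replicate 1. On that array pan-endothelial markers were the lowest of all 30, at a mean of 7.75, microglia markers the highest, at 9.82, and ganglion cell markers at 8.44, while the other P5 groups ranged from 10.4 to 11.5. Without it the Esm1 difference was 0.72 (adjusted p = 0.49).

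Aplnr after CD34 at P5 read 10.19, 11.68 and 10.92, the widest spread of any group (SD 0.75), and Cxcr4 read 10.08, 9.67 and 9.15. Replicate 1 was thus the lowest of its group in Aplnr and the highest in Cxcr4. Among the partner genes Ackr3, a scavenger receptor of Cxcl12, rose by 1.43 ± 0.36 (adjusted p = 0.015) and Rgs16, which shuts off G protein signals, fell by 0.56 (adjusted p = 0.0071). The netrin receptors Dcc and Dscam fell by 0.57 and 0.96. Ganglion cell markers, 7 of 7 measured, fell in the same comparison with a median of -1.52, and their part in these differences was not tested. Their mean was 8.44, 11.09 and 9.27 on the CD34 arrays, low on 2 of the 3, since replicate 2 lay within the P5 saline range of 10.87 to 11.44.

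Compared with each other at P5, Esm1 in the combination minus CD34 alone was -1.25 ± 0.48, without overlap and without passing (adjusted p = 0.12), where 7.83% of all genes passed. ECFC alone minus CD34 alone was -1.05 ± 0.48 (adjusted p = 0.23), where 7.08% passed. None of the other comparisons between cell treatments called any of the 5 genes. The effect of each treatment at P12 minus its effect at P5 passed for none of the 5, where 0.0323% (ECFC), 1.9% (CD34) and 0% (combination) of all genes passed. Those with an unadjusted p under 0.05 were -1.76 ± 0.67 for Esm1 with CD34 (adjusted p = 0.17) and -0.78 ± 0.36 for Unc5b with ECFC (adjusted p = 0.4). The CD34 share rested on single arrays: it was 0.105% without P12 saline replicate 3 and 6.18% without P5 CD34 replicate 2.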

How the data were processed

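Total RNA of 1 retina per pup was isolated with the RNeasy Mini Kit and 100 ng amplified and biotin-labelled, per the labels' protocols. The deposited table holds log2 values for 22690 probe sets on 30 arrays, which the authors had normalized; Partek is named per the submitters' processing notes, with no version, and the normalization method is not given in the sources used here. No further scaling was applied. Controls made up 64 of the probe sets, 20380 carried a single gene symbol, 691 several symbols and 1555 no symbol; the brightest probe set per symbol gave 12393 genes.

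Limma 3.58.1 (R 4.3.3) fitted 1 mean per group over 30 arrays (20 residual degrees of freedom) with 23 contrasts, eBayes, two-sided tests and Benjamini-Hochberg adjustment. On simulated data the same script was tested with 200 changed genes. Levels relative to pan-endothelial genes were compared with exact permutation tests, two-sided. Members and gene lists were chosen with earlier results of these data known. Named were all members, up to 4 genes per list with the smallest p in OIR minus normoxia, and the 5 genes of most like pattern; other list genes named (among them Ackr3, Rgs16, Dscam, Ntn1, Ntn4, Kdr, Nrp2, Nid1, Col4a2 and Mmp14) were chosen after their values were seen. Deposited arrays hold no identical pair (0).

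Residuals of arrays with equal replicate number correlated from -0.45 to 0.55 over 20 comparisons. All pairs exceeded 0.1 in 2 of them, P12 combination and P5 combination against normoxia, where the pairing comes from the data only and a replicate block changed no call of the 5 genes. Alternatives were quantile normalization, median centring, other probe sets, leaving out the dimmest 30% of genes, trend and robust eBayes, array weights gene by gene, the replicate block, fitting only the groups compared, covariates (hybridisation controls, lens, pan-endothelial and, added after seeing the data, microglia markers) and leaving out each array. Each covariate slope rests on the spread within groups over 30 arrays. In P5 CD34 that spread was widest, with an SD of 3.81 for lens and 1.02 for microglia markers. The other groups reached at most 1.93 and 0.36.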

Additional observations from a re-analysis of the deposited data

How the results depend on the processing

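No difference of the 5 genes that had passed changed sign under any alternative run. Esm1 and Apln kept their calls in untreated OIR minus normoxia, P5 saline minus untreated OIR and P5 saline minus P12 saline under all of them, except that the filter on dim genes removed Esm1 itself, so its calls were not run there. The number of the 5 genes that passed changed by over 1.5 times as follows. In OIR minus normoxia, 5 in the reported fit, it was 3 with the pan-endothelial covariate and 4 to 5 when each array was left out. In P5 saline minus normoxia, 2 as reported, it was 1 with the mean of all probe sets, 0 with only the groups compared, 1 with the lens covariate and 1 to 2 when each array was left out. In P5 combination minus normoxia, 2 as reported, it was 1 under each of those 3 alternatives and 1 without any single array. In P12 saline minus untreated OIR it went from 1 to 0, and in P5 saline minus P12 saline from 2 to 4, with the hybridisation control covariate. In P12 ECFC minus P12 saline it went from 0 to 4 with array weights. Smaller changes were these. In OIR minus normoxia, 4 passed with only the groups compared. In P12 saline minus normoxia, 4 as reported, 3 passed with the hybridisation and with the pan-endothelial covariate. In P5 saline minus untreated OIR, 3 as reported, 2 passed with only the groups compared and with the lens covariate, and 4 with array weights and with the hybridisation covariate. In P5 saline minus P12 saline, 2 as reported, 3 passed with quantile normalization, median centring, array weights and only the groups compared. The dim-gene filter took 1 from each count that had held Esm1, but in P5 saline minus P12 saline Cxcr4 passed instead. The count over all genes also moved when 1 array was left out: 242 to 615 in OIR minus normoxia (565 as reported), 1687 to 2134 in P12 saline minus untreated OIR (2642), 2520 to 3936 in P12 combination minus normoxia (4099), 489 to 1045 in P5 saline minus untreated OIR (1077), 549 to 970 in P5 saline minus normoxia (1004), 49 to 233 in P5 combination minus normoxia (225), 461 to 1454 in P5 CD34 minus P5 saline (1049), 391 to 1239 in P5 ECFC minus P5 CD34 (877) and 379 to 1339 in P5 combination minus P5 CD34 (970). The causes were not tested, except that fewer arrays are fitted when only the groups compared enter. The replicate block changed no call of the 5 genes: Esm1 stayed at 4.41 (adjusted p = 8.5e-06) and Aplnr at 1.04 (adjusted p = 0.024) in OIR minus normoxia. Median centring moved the median of all genes to 0.16 in P12 saline minus untreated OIR, 0.15 in P12 combination minus normoxia and -0.15 in P5 saline minus P12 saline, with the calls of Cxcr4 in the last as given above. Esm1 at the level of Y-linked genes limits what a fall below it can show.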
